A study of Mus musculus with 6 samples.

Results

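The GDNF-RET ureteric branching genes are 10 genes of the signalling circuit that makes the collecting duct tree of the kidney branch: Gdnf, Gfra1, Ret, Etv4, Etv5, Wnt11, Wnt9b, Wnt7b, Spry1 and Sox9. They were picked by name, and their probes were found through the RefSeq accession that each probe carries, which gave 11 probes for the 10 genes among 20659 named genes on the array. Kidney RNA of newborn mice, collected about 6 hours after birth, was measured on Agilent expression arrays with a single dye, Cy3. One group held 3 separate neonates labelled USP10 KO, described as carrying a knockout of the Usp10 gene, which encodes a deubiquitinating enzyme, and the other held 3 separate neonates labelled USP10 WT. All 6 neonates were labelled male. The strain, the deleted part of Usp10 and the way the allele was made are not given in the sources used here.

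GDNF is a ligand secreted by the mesenchyme around the ureteric bud, the epithelial tube from which all collecting ducts grow. It binds the co-receptor GFRA1 and the receptor tyrosine kinase RET on the cells at the tips of the bud, and the signal maintains tip genes, among them the transcription factors Etv4 and Etv5 and the secreted factor Wnt11. Wnt11 in turn supports Gdnf in the mesenchyme, Sprouty1 dampens the signal inside the tip cell, and Wnt9b and Wnt7b are made by the bud and its stalks and act on the neighbouring mesenchyme. In mice, tips and their nephron progenitors persist until shortly after birth.

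The values are log2 processed intensity relative to the 75th percentile of the array, so a value of 0 is a probe as bright as that percentile, and a difference of 1 is a doubling. Probes of different genes differ in how brightly they light up, and levels are therefore compared only between arrays. Between 64.4% and 73.9% of the spots stood well above background on each array, and 3 arrays per group limit the precision. Usp10 itself went against the labels: its probe read 3.64, 3.37 and 3.56 on KO replicates 1 to 3 and 3.01, 3.13 and 2.95 on WT replicates 1 to 3. That is 0.49 ± 0.16 (SE) higher on the arrays labelled KO (limma, adjusted p = 0.416), and since the deleted part is not known, the probe may lie outside it. Groups are named by their labels throughout. By scan date, KO replicates 1 and 2 and WT replicates 2 and 3 formed scan 1, and KO replicate 3 and WT replicate 1 formed scan 2. A probe for Xist, a transcript of the inactive X chromosome, was well above background on WT replicates 1 and 2, and probes of Ddx3y, Eif2s3y and Uty, which lie on the Y chromosome, were so on every array but WT replicate 2, although all neonates were labelled male. Differences against WT replicate 3 alone are therefore also given for Gdnf, Gfra1, Ret, Etv5, Wnt11, Wnt9b and Wnt7b. For Etv4, Spry1 and Sox9 they are only among the alternative analyses.

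All 11 probes were well above background on all 6 arrays, so each of the 10 genes was measured in both groups. None of the 10 passed limma's test at an adjusted p of 0.05, where 0.0802% of the 21207 genes tested did, 17 in all, 0.0189% with KO higher and 0.0613% with KO lower. The adjusted p ranged from 0.330 for Ret to 0.966 for Sox9, and with scan as a block its lowest value was 0.149, where 0.292% of all genes passed. The values were not alike across the circuit. The receptor Ret, the transcription factor Etv5 and Wnt7b read higher on each array labelled KO than on any array labelled WT, and Wnt9b read lower. The other 6 genes overlapped between the groups. Against these 4 of 10, 18.2% of all genes tested had groups that did not overlap, 10.1% with KO higher and 8.1% with KO lower. Without WT replicates 1 and 2 the count was 5 of 10, beside 62.6% of all genes. At an unadjusted p under 0.05 there were 3 of the 10, Ret and Wnt7b higher and Wnt9b lower, beside 10.4% of all genes, 6.15% higher and 4.23% lower. The median log2 difference over the 10 was 0.13, beside 0.028 over all genes, and it was 0.019 under quantile normalisation, 0.013 with normexp and quantile normalisation and 0.057 without KO replicate 1.

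**Figure D1:**
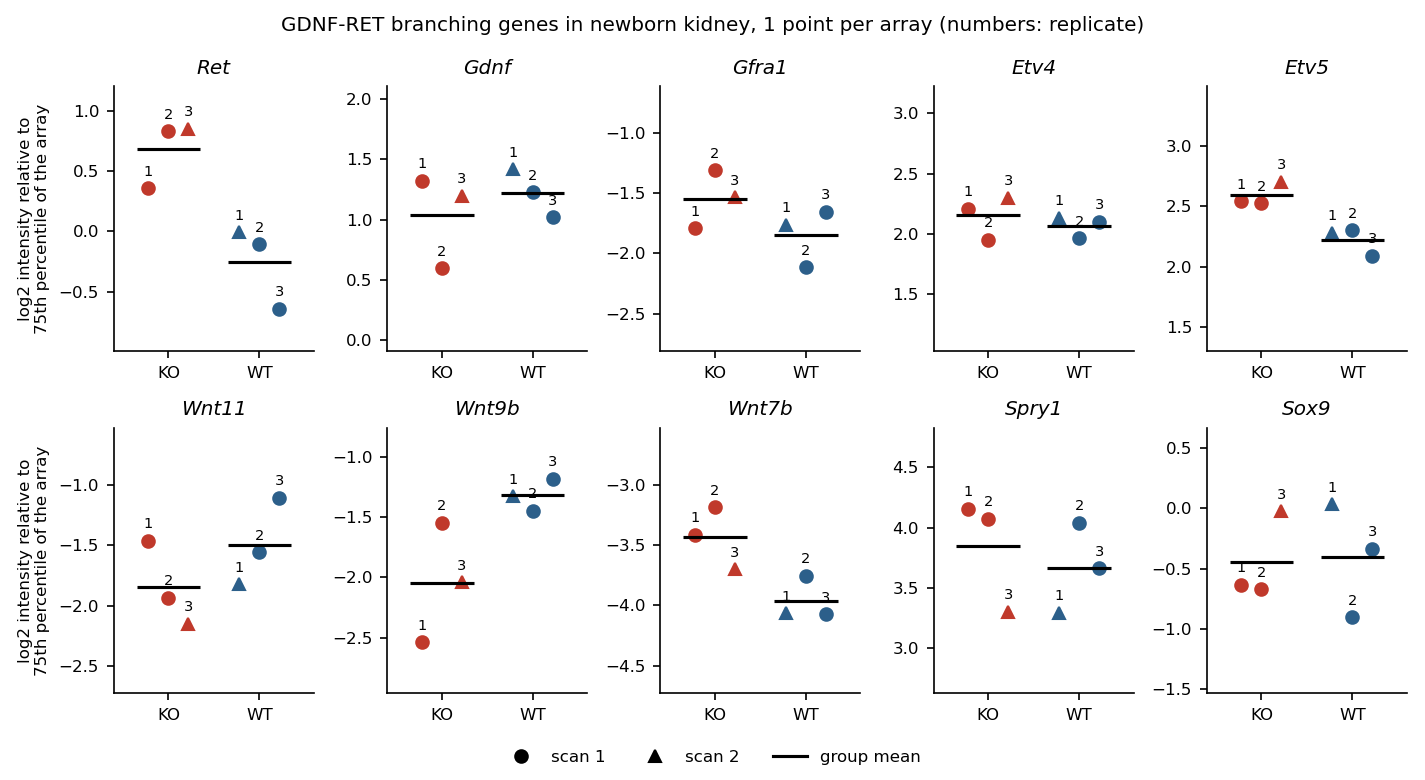
Log2 intensity relative to the 75th percentile of the array for the 10 genes, 1 point per array, with the replicate number beside the point, circles for scan 1, triangles for scan 2 and a bar at the group mean. The groups are apart for Ret, Etv5, Wnt9b and Wnt7b and overlap for the other 6 genes, and in the Spry1 and Sox9 panels the triangles lie together.

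Gdnf (NM_010275), the ligand, read 1.32, 0.60 and 1.20 on KO replicates 1 to 3 and 1.42, 1.23 and 1.02 on WT replicates 1 to 3. The groups overlapped, and KO replicate 2 was the lowest array. The mean was 1.04 ± 0.39 (SD, n = 3) on KO arrays and 1.22 ± 0.20 (SD, n = 3) on WT arrays, a log2 difference of -0.18 ± 0.24 (SE; limma, adjusted p = 0.776). The 95% interval of the difference ran from -0.73 to 0.37. Without KO replicate 2 the difference was 0.039, and against WT replicate 3 alone it was 0.019, both on the other side of 0.

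Gfra1 (NM_010279), the GPI-anchored co-receptor that presents GDNF to RET, read -1.79, -1.31 and -1.53 on KO arrays and -1.76, -2.12 and -1.66 on WT arrays. KO replicate 1 was below 2 of the WT arrays, and the groups overlapped. The difference was 0.30 ± 0.21 (SE; limma, adjusted p = 0.592), with a 95% interval from -0.18 to 0.78, and it was 0.11 against WT replicate 3 alone.

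Ret (NM_001080780), the receptor tyrosine kinase, showed the largest difference of the 10 genes in the fit of all arrays. It read 0.36, 0.83 and 0.85 on KO replicates 1 to 3 and -0.01, -0.11 and -0.64 on WT replicates 1 to 3. Every KO array stood above every WT array, with WT replicate 3 the lowest, and the gap between the closest arrays was smaller than the range within either group. The means were 0.68 ± 0.28 (SD, n = 3) and -0.25 ± 0.34 (SD, n = 3). The signal was 0.93 ± 0.24 (SE) higher on the log2 scale, or 1.91-fold with a 95% interval from 1.30 to 2.80. The limma p was 0.00505 before adjustment, rank 324 among 21207 genes, and 0.330 after it. The exact two-sided permutation test gave p = 0.1, the smallest that 3 arrays against 3 allow. The log2 difference was 0.97 within scan 1 and 0.86 within scan 2. It was 1.32 against WT replicate 3 alone, and it lay between 0.74 and 1.32 over 20 alternative analyses. The receptor was thus apart between groups, while the ligand and co-receptor overlapped. Whether these differences differ from one another was not tested.

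In whole kidney RNA, fewer cells of a type and less RNA per cell cannot be told apart. Ret is made in tip cells and, later, in other epithelium of the ureteric lineage, so the markers of that lineage are given beside it. Of 13 markers of ureteric and collecting duct epithelium, such as Aqp2, Krt8 and Cdh1, none passed the test, 10 read higher and 3 lower, and their median log2 difference was 0.12. This median was -0.13 without KO replicate 2 and 0.42 without KO replicate 1, so single arrays set its sign and size. Their summed level on the linear scale, in units of the 75th percentile, was 33.4 to 56.8 on KO arrays and 35.1 to 38.9 on WT arrays. The highest sum was that of KO replicate 2. The mean of the 13 on the log2 scale was 0.21, 1.20 and 0.42 on KO replicates 1 to 3 and 0.34, 0.53 and 0.62 on WT replicates 1 to 3. Ret minus this mean, a distance within each array, was 0.15, -0.37 and 0.43 on KO arrays and -0.35, -0.63 and -1.26 on WT arrays. On that scale the groups met, since KO replicate 2 fell just below WT replicate 1, and the means were 0.82 apart. All 8 markers of urothelium, the lining of ureter and pelvis, also read higher on KO arrays. Of these, 4 had an unadjusted p under 0.05, beside 6.15% of all genes with KO higher, and none passed the adjusted threshold. The median log2 difference of the 8 was 0.51. Against WT replicate 3 alone this median was 0.18. Their summed level was 8.50 to 15.6 on KO arrays and 5.44 to 8.40 on WT arrays. The part of either tissue in the Ret result was not tested.

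Etv4 and Etv5 are ETS-family transcription factors that act downstream of RET in the tip. Etv4 (NM_008815) was read by 2 probes. The brighter one gave 2.21, 1.95 and 2.30 on KO arrays and 2.13, 1.96 and 2.10 on WT arrays. KO replicate 2 was lower than all 3 WT arrays, and the groups overlapped. The difference was 0.09 ± 0.17 (SE; limma, adjusted p = 0.852), with a 95% interval from -0.30 to 0.48. The dimmer probe, which targets the same transcript, gave 0.12 ± 0.19 (SE). Under quantile normalisation the difference of the brighter probe was -0.0049.

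Etv5 (NM_023794) read 2.54, 2.53 and 2.70 on KO arrays and 2.28, 2.30 and 2.09 on WT arrays. The groups did not overlap, and the spread within each was small, with an SD of 0.10 on KO arrays and 0.12 on WT arrays. The log2 difference was 0.37 ± 0.16 (SE), or 1.29-fold. The unadjusted p of limma was 0.0527 and the adjusted p 0.482, and the exact permutation p was 0.1. The difference was 0.34 within scan 1, 0.42 within scan 2 and 0.50 against WT replicate 3 alone, and the 20 alternatives gave 0.25 to 0.50. The paralogs thus had overlapping intervals, that of Etv5 from -0.006 to 0.74, and whether they differed from each other was not tested. Within an array, Etv5 minus Etv4 was 0.33 to 0.57 on KO arrays and -0.01 to 0.34 on WT arrays, ranges that overlap.

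**Figure D2:**
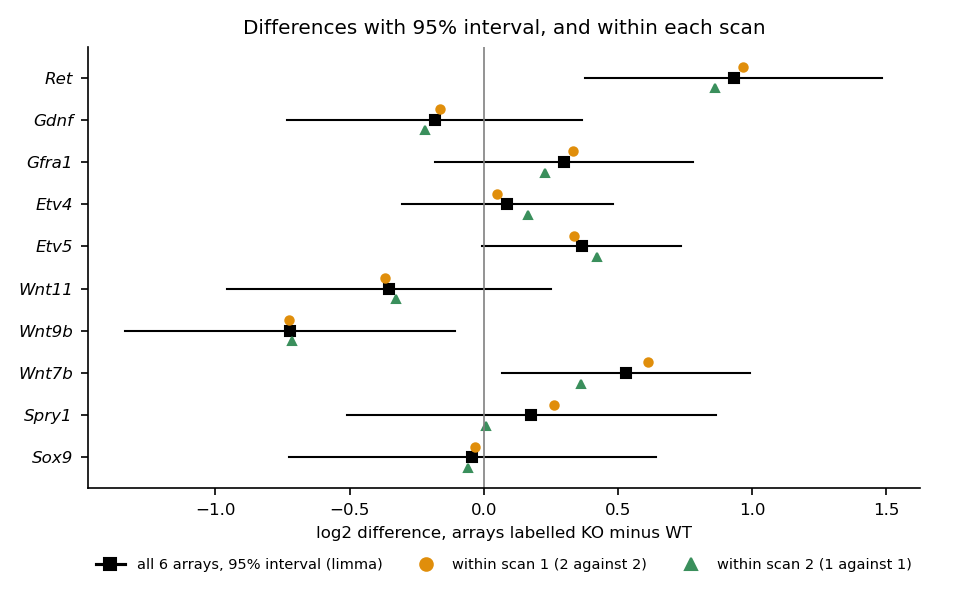
Log2 difference of each gene, arrays labelled KO minus arrays labelled WT, with the 95% interval of the limma fit (black), the difference within scan 1 (orange, 2 arrays against 2) and within scan 2 (green, 1 against 1). The intervals of Ret, Wnt9b and Wnt7b do not reach 0, before any adjustment for the number of genes, and every gene has the same sign in both scans.

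The 3 Wnt genes encode secreted ligands with different places in the tree: Wnt11 at the tips, Wnt9b along the bud and its stalks, where it induces nephrons in the mesenchyme, and Wnt7b in the stalks, where it is needed for the medulla. Wnt11 (NM_009519) read -1.46, -1.94 and -2.15 on KO arrays and -1.82, -1.56 and -1.11 on WT arrays. KO replicate 1 was above 2 of the WT arrays, and the groups overlapped. The difference was -0.35 ± 0.26 (SE; limma, adjusted p = 0.612), with a 95% interval from -0.96 to 0.25. It was -0.74 against WT replicate 3 alone and -0.16 at the nearest to 0 among the alternatives. Wnt11, a RET-dependent tip gene, thus read on average lower where Ret read higher.

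Wnt9b (NM_011719) read -2.54, -1.55 and -2.04 on KO arrays and -1.33, -1.45 and -1.18 on WT arrays. All KO arrays were below all WT arrays, but KO replicate 2 was only just below WT replicate 2. The spread was wide on KO arrays (SD 0.50) and narrow on WT arrays (SD 0.13). The mean was 0.72 ± 0.26 (SE) lower on the log2 scale, so that WT arrays were 1.65-fold brighter. The 95% interval of the log2 difference, KO minus WT, ran from -1.34 to -0.11, and the limma p was 0.0269 before and 0.439 after adjustment. The exact permutation p was 0.1. The difference was -0.73 in scan 1 and -0.71 in scan 2. Without KO replicate 1 it was -0.47, a change of over 1.5 times, and against WT replicate 3 alone it was -0.86. Set against the mean of the 13 ureteric and collecting duct markers, Wnt9b was at -2.75, -2.75 and -2.46 on KO arrays and at -1.67, -1.97 and -1.80 on WT arrays. On that scale the groups did not overlap, with an SD of 0.16 on KO arrays and 0.15 on WT arrays. Relative to the same markers, Etv5 was at 1.32 to 2.33 on KO arrays and 1.47 to 1.94 on WT arrays. Wnt7b was at -4.39 to -3.62 on KO arrays and -4.69 to -4.28 on WT arrays. Of the 4 genes whose groups were apart, Ret, Etv5 and Wnt7b thus overlapped on this scale.

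Wnt7b (NM_001163634) read -3.41, -3.19 and -3.70 on KO arrays and -4.07, -3.75 and -4.07 on WT arrays. The groups did not overlap, although KO replicate 3 and WT replicate 2 were close. The log2 difference was 0.53 ± 0.20 (SE), or 1.44-fold, with a 95% interval from 0.067 to 0.99. The limma p was 0.0301 before and 0.448 after adjustment, and the exact permutation p was 0.1. It was 0.61 within scan 1, 0.36 within scan 2 and 0.64 against WT replicate 3 alone. The difference was 0.43 with normexp background correction, 0.47 with quantile normalisation and 0.15 with both. The stalk ligands Wnt9b and Wnt7b thus lay on opposite sides. Within an array, Wnt7b minus Wnt9b was -0.87, -1.64 and -1.66 on KO arrays and -2.74, -2.30 and -2.89 on WT arrays. Every KO array was higher for Wnt7b and lower for Wnt9b, so the groups could not overlap in this distance. It adds no result to those of the 2 genes, and its means were 1.25 apart.

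Promoter sequence was matched in RefSeq (GRCm38.p6) for 6 of the 10 genes, with 9 windows of 250 bases upstream of a start, and 3 are shown: that of Wnt11, which holds the one motif match found, that of Wnt9b, the stalk ligand that read lower, and that of Etv5, the tip factor that read higher. Wnt11 and Etv5 have more than 1 start in the table, and the first listed is shown. They are written 5′ to 3′ on the strand of the gene, ending at the base before the start, and capitals mark the TCF/LEF motif CTTTGAT or its reverse complement.
Wnt11, chr7:98834862-98835111, plus strand: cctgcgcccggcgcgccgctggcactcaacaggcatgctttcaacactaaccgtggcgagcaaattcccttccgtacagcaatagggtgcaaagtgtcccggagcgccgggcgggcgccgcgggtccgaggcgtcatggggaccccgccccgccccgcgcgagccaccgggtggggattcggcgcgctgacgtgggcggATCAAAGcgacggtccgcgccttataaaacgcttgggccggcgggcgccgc
Wnt9b, chr11:103749822-103750071, minus strand: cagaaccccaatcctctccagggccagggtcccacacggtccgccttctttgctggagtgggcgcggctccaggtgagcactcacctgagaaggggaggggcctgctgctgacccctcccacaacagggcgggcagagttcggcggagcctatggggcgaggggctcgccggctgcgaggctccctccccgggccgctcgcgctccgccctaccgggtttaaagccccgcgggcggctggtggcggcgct
Etv5, chr16:22439571-22439820, minus strand: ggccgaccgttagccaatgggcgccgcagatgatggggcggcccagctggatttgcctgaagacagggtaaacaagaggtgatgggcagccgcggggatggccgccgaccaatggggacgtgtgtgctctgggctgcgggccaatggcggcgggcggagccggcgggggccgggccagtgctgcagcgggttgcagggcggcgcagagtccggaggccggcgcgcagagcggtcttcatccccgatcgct

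The 3 windows are rich in G and C, with 70.8% for Wnt11, 72.0% for Wnt9b and 71.2% for Etv5. On either strand, the TCF/LEF motif CTTTGAT stood in 1 of the 9 windows, that of Wnt11, from 51 to 45 bases upstream of the start, and in 3.21% of all 32851 promoter windows of this length. The ETS motif CCGGAAG, also searched on both strands, stood in none of the 9 and in 6.91% of all windows. With no ETS match, the motifs did not overlap. A match describes these letters only, and no match says only that the letters are not in these windows.

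Spry1 (NM_011896), the Sprouty protein that limits RET signalling, read 4.16, 4.07 and 3.30 on KO arrays and 3.29, 4.04 and 3.66 on WT arrays. The groups overlapped over almost their whole range. The difference was 0.18 ± 0.29 (SE; limma, adjusted p = 0.827), with a 95% interval from -0.51 to 0.86. The arrays of scan 2 were the lowest of both groups, at 3.29 and 3.30, against 3.66 to 4.16 in scan 1, and within scan 2 the groups differed by 0.01. Without WT replicate 1 the difference was -0.0088.

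Sox9 (NM_011448), a transcription factor of the ureteric tip that also marks other epithelia and cartilage, read -0.63, -0.67 and -0.02 on KO arrays and 0.04, -0.90 and -0.33 on WT arrays. The difference was -0.042 ± 0.29 (SE; limma, adjusted p = 0.966), with a 95% interval from -0.73 to 0.64. Its probe was spotted 10 times on each array, and the spots of an array agreed closely, with an SD between 0.047 and 0.090. The closest arrays, KO replicates 1 and 2 and again KO replicate 3 and WT replicate 1, differed by no more than that spread of spots, which is technical and leaves out the differences between neonates. Again the arrays of scan 2 stood together, here as the highest, at -0.02 and 0.04 against -0.90 to -0.33 in scan 1. The mean of scan 2 minus scan 1 was 0.64 for Sox9 and -0.68 for Spry1. Leaving out KO replicate 1, KO replicate 2 or WT replicate 1 turned the sign of the Sox9 difference, with values of 0.053, 0.073 and 0.18. For both genes the part of the scan in these levels was not tested, and each scan held arrays of both groups.

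**Figure D3:**
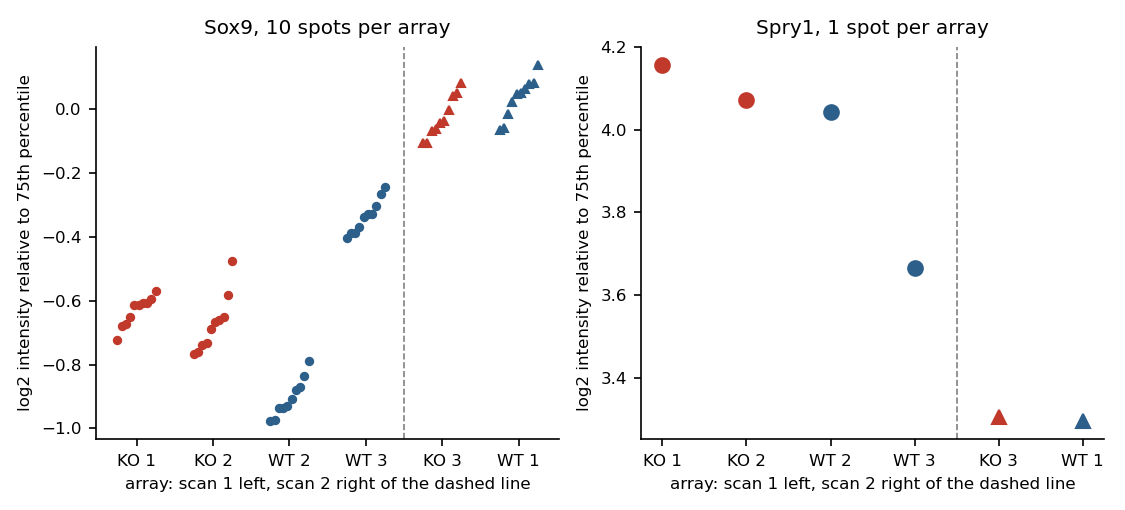
Log2 intensity relative to the 75th percentile on each array, for the 10 spots of Sox9 (left) and the single spot of Spry1 (right), red for arrays labelled KO and blue for WT, with the scan 2 arrays as triangles right of the dashed line. Scan 2 holds the highest Sox9 values, -0.02 and 0.04 on average, and the lowest Spry1 values, 3.29 and 3.30.

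Around the 10 genes, 8 lists held 96 further genes of the pathway, of which 91 were measured. None of the 91 passed the adjusted threshold, also under each of the 20 alternatives. At an unadjusted p under 0.05 there were 3 higher and 2 lower, beside 6.15% and 4.23% of all genes. Groups that did not overlap were found for 7 higher and 5 lower, beside 10.1% and 8.1% of all genes. Their median log2 difference was 0.10, beside 0.028 over all genes.

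Among the tip genes and RET targets, 10 of 12 were measured, with 6 higher and 4 lower and a median of 0.15. Myb, a transcription factor enriched in the tips, read -0.21, -0.29 and -0.12 on KO arrays and -0.76, -0.81 and -0.94 on WT arrays. The groups were apart by more than either spread, and the difference was 0.63 ± 0.16 (SE; limma, adjusted p = 0.322). Dusp6, a phosphatase that is induced by MAP kinase signalling and dampens it, read 3.54, 3.54 and 3.48 on KO arrays and 3.11, 3.33 and 3.22 on WT arrays, a difference of 0.30 ± 0.15 (SE; adjusted p = 0.515). Its groups did not overlap. Sox8 was not well above background on any array, and Spry2 was so on 2 KO arrays only.

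In the signalling chain inside the cell, all 15 genes were measured, 6 higher and 9 lower, with a median of -0.08. Map2k1, the MAP kinase kinase MEK1, read -1.14, -1.16 and -1.26 on KO arrays and -0.44, -1.09 and -0.48 on WT arrays. Its KO arrays were all lower, although WT replicate 2 came close, and the difference was -0.52 ± 0.21 (SE; limma, adjusted p = 0.473). Dok4, an adaptor that binds RET, was -0.38 ± 0.17 (SE) apart with an adjusted p of 0.482, again with no overlap. None of the 15 genes of this chain passed the test.

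Of the other ligands and co-receptors of the GDNF family, 5 of 6 were measured and their median was -0.07. Gfra2, the co-receptor of neurturin, read -0.30, -1.72 and -1.03 on KO arrays and -0.29, -0.44 and 0.32 on WT arrays. The groups overlapped narrowly, at -0.88 ± 0.38 (SE; limma, adjusted p = 0.480). Gfra4, the co-receptor of persephin, read -0.62, 5.37 and 4.09 on KO arrays and -0.51, 0.52 and -0.60 on WT arrays. KO replicates 2 and 3 stood far above the other 4 arrays while KO replicate 1 was the lowest of all, and the mean difference of 3.15 ± 1.37 (SE) had an adjusted p of 0.482. Of the other probes of this gene on the array, one was well above background on all 6 arrays and gave a difference of -0.0056, and the third was so on none. Pspn, the gene of persephin, was not well above background on any array.

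**Figure D4:**
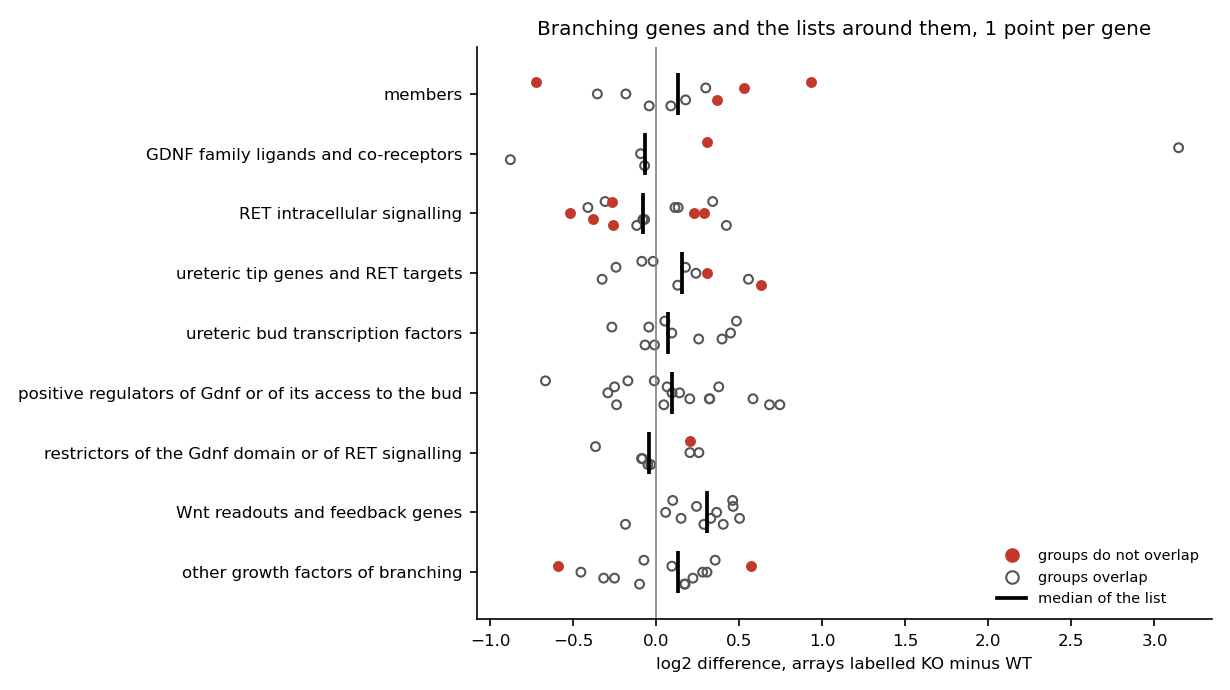
Log2 difference, arrays labelled KO minus WT, of each measured gene of the 10 branching genes (members) and of the 8 lists around them, filled where the groups do not overlap, with a bar at the median of the list. The medians lie between -0.08 and 0.31, and the point at 3.15 is Gfra4.

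Of 12 Wnt readouts and feedback genes, 11 read higher on KO arrays and 1 lower, where 11294 of the 21207 genes tested read higher. Their median was 0.31, and 0.14 with normexp and quantile normalisation, but none reached an unadjusted p of 0.05 and all overlapped between groups. Tafa5, a gene of nephron progenitors that depends on Wnt9b, was 0.46 ± 0.20 (SE; limma, adjusted p = 0.482) higher, with Wnt9b itself reading lower. Lgr5, a receptor for R-spondin that is induced by Wnt signalling, was 0.46 ± 0.22 (SE; limma, adjusted p = 0.502) higher. Notum, which inactivates Wnt proteins, was the one of the 12 that read lower and was picked out for that.

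Of the transcription factors of the bud, all 10 were measured, 6 higher and 4 lower, with a median of 0.07. Grhl2 and Tfcp2l1, factors of duct epithelium, were 0.45 ± 0.26 (SE) and 0.48 ± 0.31 (SE) higher, with adjusted p of 0.544 and 0.572 by limma.

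Among 17 measured positive regulators of Gdnf or of its access to the bud, 11 read higher and 6 lower, and the median was 0.10. Grip1, a scaffold of the matrix proteins at the bud surface, was 0.58 ± 0.25 (SE; limma, adjusted p = 0.480) higher. Six2, which keeps nephron progenitors undifferentiated, read 0.77, -0.06 and 0.85 on KO arrays and 1.56, 0.65 and 1.36 on WT arrays, a difference of -0.67 ± 0.33 (SE; limma, adjusted p = 0.511) with overlapping groups. Of 8 restrictors of the Gdnf domain or of RET signalling, 3 read higher and 5 lower, with a median of -0.04. Foxc2, a forkhead factor that limits where Gdnf is made, had a difference of -0.37 ± 0.26 (SE; limma, adjusted p = 0.603).

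Among 14 measured other growth factors of branching, 8 read higher and 6 lower, with a median of 0.13. Vegfa, the vascular growth factor, read 0.58, 0.73 and 0.81 on KO arrays and 1.29, 1.05 and 1.55 on WT arrays, at -0.59 ± 0.19 (SE; limma, adjusted p = 0.411). Fgf9, a growth factor that keeps nephron progenitors in their state, read 0.81, 1.35 and 1.05 on KO arrays and 0.33, 0.76 and 0.39 on WT arrays, at 0.57 ± 0.21 (SE; limma, adjusted p = 0.443). Both had groups that did not overlap, in opposite directions.

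The cells that exchange signals with the bud were followed by their markers. Of 7 nephron progenitor markers, 1 read higher and 6 lower, with a median log2 difference of -0.64 (-0.41 without KO replicate 2). At an unadjusted p under 0.05 there were 3, all lower, beside 4.23% of all genes, and none passed the adjusted threshold. The summed level of the 7 overlapped, with 11.8 to 18.4 on KO arrays and 13.6 to 19.8 on WT arrays. Eya1, the 1 that read higher, gave the largest part of that sum on each KO array. It read 2.15, 2.61 and 3.34 on KO arrays and 2.72, 2.16 and 1.18 on WT arrays. All 8 markers of renal stroma read lower, by differences from -0.53 to -0.003, with a median of -0.30, which was -0.049 without KO replicate 2. Of these, 1 had an unadjusted p under 0.05 and 1 had no overlap, beside 4.23% and 8.1% of all genes. The sums overlapped, with 146 to 242 on KO arrays and 149 to 223 on WT arrays. Gdnf is made by both compartments, and their part in its values, and in those of Wnt9b, was not tested. The markers that define kidney, 7 of proximal tubule and 6 of podocytes, were well above background on every array, with medians of -0.08 and -0.30 that were 0.11 and 0.07 without KO replicate 2. Of 7 macrophage markers, 1 read higher and 6 lower, with a median of -0.77 that was -0.42 with normexp and the 75th percentile. None passed the adjusted threshold. At an unadjusted p under 0.05 there were 4, all lower, beside 4.23% of all genes. The groups of 4 did not overlap, all of these lower, beside 8.1% of all genes. The summed level of the 7 was 5.07 to 5.38 on KO arrays and 5.89 to 6.96 on WT arrays. Of 7 endothelial markers 6 read lower, 4 of them without overlap, beside 8.1% of all genes. Their median was -0.32, with sums of 11.8 to 16.1 on KO arrays and 15.1 to 18.2 on WT arrays. The median was 0.04 for 5 erythroid markers and 0.34 without KO replicate 2.

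Tissue from outside the kidney was checked in the same way, whether or not it uses RET or Sox9. Of 8 markers of adrenal medulla and sympathetic neurons 4 were measured, with a median of 0.17, and Dbh and Phox2a, which define these cells, were on no array well above background. Th, Ddc and Chgb of the same list were so on all 6 arrays, with differences of 0.07, 0.27 and 0.44 and overlapping groups. Chga, the other gene measured, was so on 1 KO array and 3 WT arrays, with a difference of -0.05 and overlapping groups. Schwann cell and enteric glia markers had a median of -0.12 over 4 measured genes. Of the cartilage markers, 4 of 6 were measured with a median of 0.05, and Matn1 and Comp were on no array well above background. The summed cartilage level was 37.5 to 96.0 on KO arrays and 19.0 to 37.7 on WT arrays, and most of it was Sox5, at 5.15 to 6.56 on the log2 scale on KO arrays and 4.06 to 5.16 on WT arrays. The collagen genes Col2a1 and Col9a1 were -0.48 and -0.43 apart, lower on KO arrays on average, and Col2a1 did not overlap. Acan was 0.54 higher on KO arrays on average, with overlapping groups. Of 7 markers of adrenal cortex, 4 were measured, with a median of 0.12, and Cyp11a1 and Cyp11b2 were on no array well above background. Their summed level did not overlap, with 0.540 to 0.671 on KO arrays and 0.391 to 0.464 on WT arrays. Hsd3b1 and Mc2r, at 1.78 and 0.33, were the 2 of the list that read higher without overlap, beside 10.1% of all genes. The other 2 measured, Cyp11b1 and Cyp21a1, read lower on average, at -0.61 and -0.09, and overlapped. Cyp11b1 was well above background on 1 KO array and 3 WT arrays, so it passed the filter through WT only. Its lower KO readings thus lie near background. None of the 4 passed the adjusted threshold. The part of these tissues in the values of Ret and Sox9 was not tested.

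**Figure D5:**
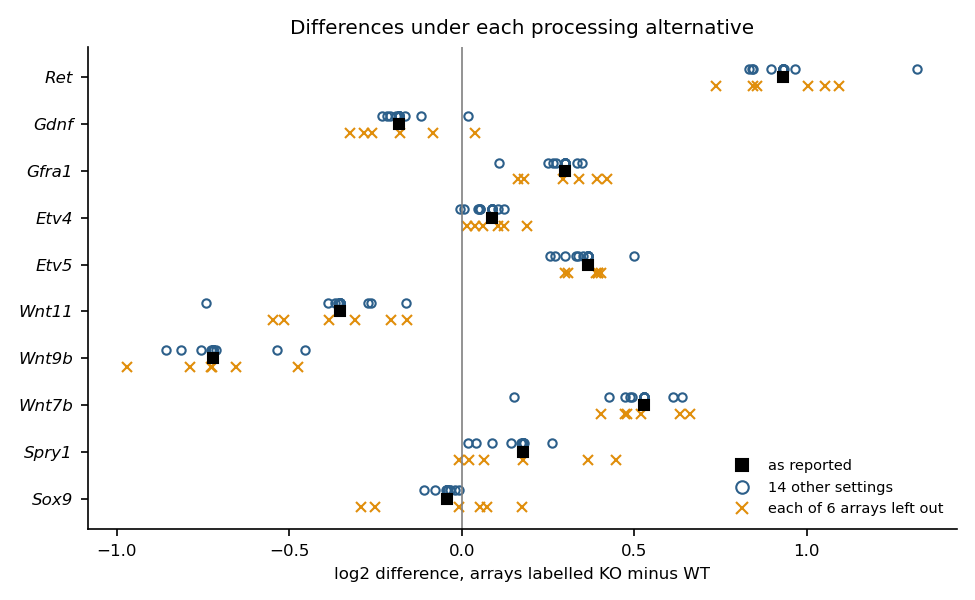
Log2 difference of each of the 10 genes, arrays labelled KO minus WT, as reported (black square), under 14 other settings (blue circles) and without each of the 6 arrays (orange crosses). Ret, Etv5 and Wnt7b stay above 0 and Wnt9b below 0 under all 20, Gfra1 and Wnt11 also keep their side, and Gdnf, Etv4, Spry1 and Sox9 lie on both sides of 0.

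Over the 20 alternatives, none of the 10 genes passed the adjusted threshold. Ret, Gfra1, Etv5 and Wnt7b remained on the higher side and Wnt9b and Wnt11 on the lower side in all of them. With any single array left out, between 4 and 6 of the 10 genes had groups that did not overlap, beside 22.3% to 33.8% of all genes. The 4 genes without overlap on all arrays are among them by construction, so these counts say nothing of stability.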

How the data were processed

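The authors deposited each array as read by the scanner software Agilent Feature Extraction. The file headers give its version as 11.0.1.1, while the submitters' processing notes give 9.1. Per the file headers, the processed signal is a linear intensity for each spot from which background was subtracted, and arrays were not normalised to each other. Of 44397 spots per array, 1377 controls and all spots flagged as outliers were left out. Intensity was turned to log2 and given relative to each array's 75th percentile over the remaining spots, and the mean of a probe's spots was used. Probe accessions were named through a RefSeq table (GRCm38.p6), which matched 27234 of 39429 probes (69.1%). The array design names build mm9, so no coordinates of probes are given. Probes had to be well above background throughout KO or throughout WT, each gene was read by its brightest such probe, and 21207 genes were tested. The two-sided test was limma 3.58.1 (lmFit, then eBayes) under R 4.3.3, with Benjamini-Hochberg adjustment over all tested genes and a threshold of 0.05. The fit was tested on simulated data. Permutation tests of single values were exact.

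The 10 branching genes, the pathway and marker lists and the choice of named genes were made with earlier results of these data known. Named were all 10 genes, Usp10 and, of each pathway list, genes past the threshold or otherwise the 2 with the smallest unadjusted p. Of marker lists, only genes not above background on any array were named, beside examples that say what a list holds. Genes named beyond this rule were picked after their values were seen. Some genes of the lists are counted but not reported here by name. No set test was run. Alternatives were other scalings, background corrections with normexp (offset 50, on median signals), filters, probe summaries and variances, array weights, a replicate block, scan as a block, scan 1 alone, each array left out, and WT replicate 3 alone. The counts of genes without overlap with arrays left out were added after seeing the data.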

Additional observations from a re-analysis of the deposited data

How the results depend on the processing

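The number of genes past the adjusted threshold, 17 as reported, was 0 with normexp and quantile normalisation, 0 with no filter on dim probes, 1 with the stricter filter, 8 with the mean of probes, 27 with every probe on its own, 45 with an intensity trend and robust variance, 36 with array weights, 62 with scan as a block, 0 against WT replicate 3 alone, and 0 to 30 with an array left out (30 without KO replicate 3, 0 without any other). Deviations of arrays of the same replicate number correlated at -0.40, 0.48 and -0.60, and the replicate block left 0 genes. The highest correlation, 0.89, was between KO replicate 3 and WT replicate 1, the arrays of scan 2. Scan was not taken out, so these values cannot tell whether the numbers pair neonates. At an unadjusted p under 0.05, limma gave 2208 genes with normexp and quantile normalisation, 2052 with no filter, 1609 with the replicate block and 2009 against WT replicate 3 alone. Ret and Wnt9b were among these with normexp and quantile normalisation, with no filter and with the replicate block. No gene past the adjusted threshold in any setting was one of the 10 branching genes. Their lowest adjusted p by limma was 0.149, for Ret with scan as a block. The differences that turned sign were small: Etv4 at -0.0049 under quantile normalisation, Gdnf at 0.039 without KO replicate 2 (range with an array left out -0.32 to 0.039) and 0.019 against WT replicate 3 alone, Spry1 at -0.0088 without WT replicate 1 (range -0.0088 to 0.45), and Sox9 at 0.053, 0.073 and 0.18 without KO replicate 1, KO replicate 2 and WT replicate 1 (range -0.29 to 0.18). The cause was not tested. Normexp with the 75th percentile moved the median of all genes from 0.028 to 0.14, and no filter moved it to 0.12. The pathway lists' median lay between 0.02 and 0.15, and the medians of GDNF family genes (-0.10 to 0.22), RET signalling (-0.19 to 0.04), restrictors (-0.11 to 0.11) and other growth factors (-0.06 to 0.21) lay on both sides of 0. Wnt7b, at 0.53 as reported, was 0.15 with normexp and quantile normalisation.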

Other observations

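Ret minus Gfra1, the distance between receptor and co-receptor within an array, was 2.14 to 2.39 on KO arrays and 1.01 to 2.01 on WT arrays. Ret minus Wnt11 was 1.82, 2.76 and 3.00 on KO arrays and 1.81, 1.45 and 0.47 on WT arrays, with KO replicate 1 and WT replicate 1 nearly level. These distances were computed after the levels were seen and carry no test.

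Nrtn, the gene of neurturin, was 0.31 higher on the log2 scale on KO arrays (limma, adjusted p = 0.522). Its groups did not overlap, beside 10.1% of all genes with KO higher. Gfra2, which binds neurturin, read lower on average with overlapping groups. Hsd3b1, a steroid synthesis enzyme on the adrenal cortex list, was 1.78 higher (limma, adjusted p = 0.095), and Cx3cr1 on the macrophage list was 1.58 lower on average (adjusted p = 0.060, and 0.035 with scan as a block). These 3 genes were singled out after their values were seen.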
